A study of Mus musculus with 6 samples.

Results

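The 9 regulators of haematopoietic stem cell (HSC) identity described here were chosen by symbol and are Hlf, Mecom, Erg, Prdm16, Meis1, Mllt3, Tcf15, Nkx2-3 and Myct1. They were chosen with earlier results of these data known. All 9 were found among the 49997 genes of the count table and all 9 passed the filter on low counts. Asrij is the protein encoded by Ociad1. Bulk RNA-seq was made from long-term HSCs of bone marrow of 4-month-old C57BL/6J mice, sorted by flow cytometry into an Asrij high and an Asrij low population, with 3 libraries each. The sample labels name no transgene, treatment or other allele, and do not say how Asrij was read in the sort. The deposited table's own name carries the letters ArjKI, which no label explains, so an Asrij allele shared by all 6 libraries may go unstated in the labels. Whether each library came from its own mouse is also not given, and the p-values therefore cover only the spread among these libraries, part of which may be technical. Gene positions come from RefSeq's GRCm38.p6 annotation.

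Long-term HSCs are mostly quiescent cells that renew themselves and sustain all blood lineages, and a small set of nuclear regulators is needed to keep that state. Hlf is a PAR bZIP transcription factor, Erg an ETS factor, Meis1 and Nkx2-3 carry homeodomains, Tcf15 is a basic helix-loop-helix factor, and Mecom and Prdm16 are related zinc finger proteins of the PRDM family. The remaining members are no DNA-binding factors in the strict sense: Mllt3 (AF9) is a YEATS-domain reader of acylated histones that recruits elongation and DOT1L complexes, and Myct1 encodes a small membrane protein found in stem cells and endothelium.

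The regions just before the start sites are shown for members that were lower in Asrij high and, in contrast, for Mllt3, which was not. Each is the 250 bases before an annotated start (RefSeq, GRCm38.p6), printed 5′ to 3′ on the gene's strand, and the table held such regions for 8 of the 9 members. Capitals mark matches, on either strand, to 8 short motifs that are spelled out after the sequences.
Hlf, chr11:90390918-90391167, minus strand: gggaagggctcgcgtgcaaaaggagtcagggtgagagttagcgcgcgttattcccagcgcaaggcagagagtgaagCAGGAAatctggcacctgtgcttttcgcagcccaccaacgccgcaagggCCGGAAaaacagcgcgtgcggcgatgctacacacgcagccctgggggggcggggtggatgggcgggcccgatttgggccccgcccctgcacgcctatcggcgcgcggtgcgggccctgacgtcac
Nkx2-3, chr19:43612075-43612324, plus strand: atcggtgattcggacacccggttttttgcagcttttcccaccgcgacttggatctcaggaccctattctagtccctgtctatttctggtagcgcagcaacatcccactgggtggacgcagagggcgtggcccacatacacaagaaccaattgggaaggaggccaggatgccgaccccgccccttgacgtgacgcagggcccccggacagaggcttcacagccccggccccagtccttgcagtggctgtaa
Myct1, chr10:5593478-5593727, plus strand: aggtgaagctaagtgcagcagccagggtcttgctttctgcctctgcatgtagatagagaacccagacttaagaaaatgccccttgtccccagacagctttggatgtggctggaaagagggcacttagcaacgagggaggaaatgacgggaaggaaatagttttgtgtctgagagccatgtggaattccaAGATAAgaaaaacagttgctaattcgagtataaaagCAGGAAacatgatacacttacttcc
Erg, chr16:95459349-95459598, minus strand: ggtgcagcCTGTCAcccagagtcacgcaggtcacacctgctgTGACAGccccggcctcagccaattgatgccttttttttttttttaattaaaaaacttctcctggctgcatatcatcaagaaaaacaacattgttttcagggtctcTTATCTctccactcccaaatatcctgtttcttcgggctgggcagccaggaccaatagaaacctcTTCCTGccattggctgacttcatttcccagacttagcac
Mllt3, chr4:88033408-88033657, minus strand: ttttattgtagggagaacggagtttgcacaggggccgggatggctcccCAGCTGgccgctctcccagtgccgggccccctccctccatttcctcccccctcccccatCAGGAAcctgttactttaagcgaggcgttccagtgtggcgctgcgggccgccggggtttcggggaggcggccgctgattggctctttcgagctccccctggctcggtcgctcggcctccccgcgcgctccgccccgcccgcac

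Each motif was also counted over 32851 regions of that length from all genes. The ETS core was searched as CCGGAA, which 12.0% of all regions held. The variant ETS core was searched as CAGGAA, held by 25.7%. The GATA motif was searched as AGATAA, held by 9.99%. The E-box was searched as CAGCTG, held by 13.0%. The RUNX motif was searched as TGTGGT, held by 14% of them. The MEIS motif was searched as TGACAG, held by 15.9%. The NKX2 motif was searched as CACTTNA, held by 10.1%. The PAR bZIP motif was searched as TTACGTAA, held by 0.113%. None of these letter strings overlaps another in a match printed here.

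In Hlf the variant ETS core lay 174 bases and the ETS core 125 bases before the start. Myct1 held the GATA motif at 61 bases and the variant ETS core at 25 bases. The Erg region, which precedes an internal start of that gene, held the GATA motif at 103 bases and the variant ETS core at 39 bases, both on the other strand, besides MEIS matches at 208 and 242 bases. It is the Erg region on file with the most motifs. The region at the 5′ end of Erg, not printed, held only the NKX2 motif, at 28 bases, and another internal region held none. Mllt3 also held the variant ETS core, at 143 bases, with the E-box at 202 bases. The Nkx2-3 region held none of the 8. Counting all 12 regions on file, 4 of the 8 members held the variant ETS core, 4 the NKX2 motif, 3 the MEIS motif, 2 the ETS core, 2 the GATA motif and 0 the PAR bZIP motif. Of the 12 regions, 4 held the variant ETS core, 4 the NKX2 motif and 3 the MEIS motif. Mllt3, which was not lower, is among the holders of these 3 motifs. Its NKX2 and MEIS matches, at 220 and 50 bases, lie before an internal start in a region not printed. A member with several regions had more chances of a match, no motif was found in every member that was lower, and a match is a description of letters only.

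The comparison asks how these regulators differ between stem cells with high and with low Asrij. Of the 9 members, 7 were lower in Asrij high and 0 were higher at an adjusted p below 0.05 (edgeR's quasi-likelihood test over 21445 genes), where 17.7% of all tested genes were lower and 21.7% higher, 39.4% called in all. In 8 of the 9, every Asrij high library lay below every Asrij low library, as it did for 24.8% of all genes. The median log2 fold change, Asrij high over Asrij low, was -2.19 over the members and -0.02 over all genes. Library totals ran from 62732782 to 72855125 counts in Asrij high and from 24707012 to 46240743 counts in Asrij low. Ociad1 itself averaged 80.3 ± 5.76 CPM (the count relative to the library's total, after TMM scaling) in Asrij high, against 51.6 ± 5.72 CPM in Asrij low (SD, n = 3 each). With library totals as the only scaling the whole distribution moved by -0.27, and 4856 genes were lower and 3270 higher, in place of 3797 and 4655, while the members lower remained at 7 of 9. In bulk samples, fewer cells of a type and less RNA per cell cannot be told apart.

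**Figure D1:**
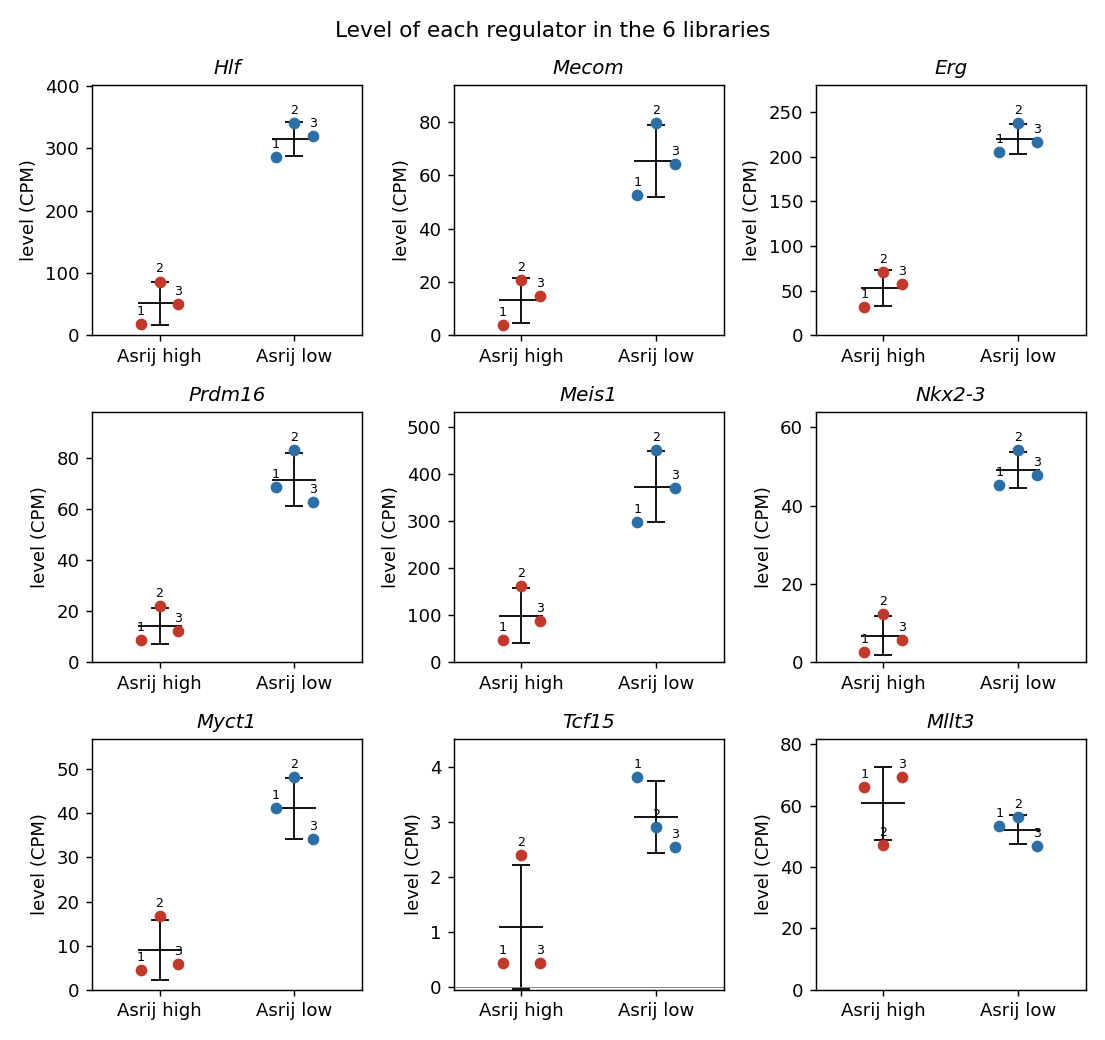
Level of each of the 9 regulators in CPM, one point per library with its replicate number, Asrij high (red) left of Asrij low (blue); the bars are the mean ± SD of 3 libraries. All Asrij high points lie below all Asrij low points in every panel except Mllt3, where the groups overlap, and Asrij high replicate 2 is the highest of its group in every panel but Mllt3.

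Hlf (chromosome 11, 90336535 to 90390917), which in mouse blood marks HSCs and restrains their entry into cycle, had 18.1, 86.4 and 49.9 CPM in Asrij high replicates 1, 2 and 3, against 286, 340 and 320 CPM in Asrij low replicates 1, 2 and 3. The groups did not overlap, and Asrij high replicate 1 was the lowest library. Hlf was 6.13-fold lower in Asrij high (log2 -2.62 ± 0.49 SE, adjusted p = 0.00467). The largest fall among the members was that of Nkx2-3 (chromosome 19, 43612325 to 43615892), an NK2 homeodomain factor known in mice from spleen and gut vessel development. It had 2.68, 12.3 and 5.67 CPM in Asrij high, against 45.2, 54.1 and 47.8 CPM in Asrij low (replicates 1 to 3). The Asrij low libraries lay close together and the Asrij high ones spread over 4.58-fold. The fold change was 7.12-fold lower in Asrij high (log2 -2.83 ± 0.48, adjusted p = 0.00223).

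Both PRDM members were lower by the same log2 fold change. Mecom (chromosome 3, 29951296 to 30509759), whose loss depletes HSCs in mice, had 3.84, 20.7 and 14.7 CPM in Asrij high, against 52.6, 79.5 and 64.2 CPM in Asrij low. The lowest library was again Asrij high replicate 1, and the groups were apart (log2 -2.32 ± 0.52, adjusted p = 0.00908). Without a count filter, Mecom did not pass the threshold (log2 -2.25, adjusted p = 0.0844), whereas the other 6 calls held under all 15 alternatives. The counts are per gene, so the long form with the PR domain and the short form (EVI1) were not separated. Prdm16 (chromosome 4, 154316122 to 154637360), which is needed to maintain HSCs in mice and is best known from brown fat, had 8.65, 22.1 and 12.2 CPM in Asrij high, against 68.6, 83.2 and 63.0 CPM in Asrij low. Its log2 fold change was -2.32 ± 0.33 (adjusted p = 9.58e-04), with no overlap of the groups.

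Erg (chromosome 16, 95359169 to 95586600), the ETS factor of the group, and Meis1 (chromosome 11, 18880428 to 19019651), the TALE homeodomain partner of PBX and HOX proteins, had, with Hlf, the highest levels per kilobase of the members that fell. Erg had 31.7, 71.1 and 56.9 CPM in Asrij high, against 205, 237 and 216 CPM in Asrij low. It had the smallest p of the 9 (log2 -2.04 ± 0.27, adjusted p = 7.28e-04), and its Asrij high libraries spread least among the members that fell, over 2.24-fold. Meis1 had 47.4, 162 and 88.5 CPM in Asrij high, against 299, 450 and 370 CPM in Asrij low. Both groups spread more than for Erg, but they did not overlap (log2 -1.91 ± 0.40, adjusted p = 0.00595).

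Myct1 (chromosome 10, 5593728 to 5606789) had 4.37, 16.8 and 5.84 CPM in Asrij high, against 41.1, 48.1 and 34.2 CPM in Asrij low. Asrij high replicate 2 stood above the other Asrij high libraries and still below every Asrij low library (log2 -2.19 ± 0.47, adjusted p = 0.00581).

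Tcf15 (chromosome 2, 152143056 to 152149097), which marks quiescent HSCs in mice and is otherwise known from somite formation, had the fewest counts of the members. It had 0.441, 2.39 and 0.440 CPM in Asrij high (24, 152 and 29 counts), against 3.81, 2.91 and 2.55 CPM in Asrij low (206, 84 and 66 counts). Asrij high replicate 2 came close to the lowest Asrij low library, while the other Asrij high libraries were far below it. The difference did not pass the threshold (log2 -1.50 ± 0.72, 95% interval -3.12 to 0.11, adjusted p = 0.126). Without Asrij high replicate 2, Tcf15 was lower in Asrij high (log2 -2.77, adjusted p = 0.00876), and limma-voom also called it (log2 -1.99, adjusted p = 0.0264).

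Mllt3 (chromosome 4, 87769925 to 88033407), which in human HSCs supports self-renewal in culture, was the exception. It had 66.0, 47.2 and 69.2 CPM in Asrij high, against 53.5, 56.2 and 46.9 CPM in Asrij low. The groups overlapped, and Asrij high replicate 2, the highest of its group for the other 8 members, was the lowest for Mllt3. The log2 fold change was 0.22 ± 0.19, with a 95% interval of -0.21 to 0.65 (adjusted p = 0.392), and the smallest fall among the 7 called members was -1.91. Its sign turned with library totals (log2 -0.060) and with upper quartile factors (log2 -0.051), so no direction is given.

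**Figure D2:**
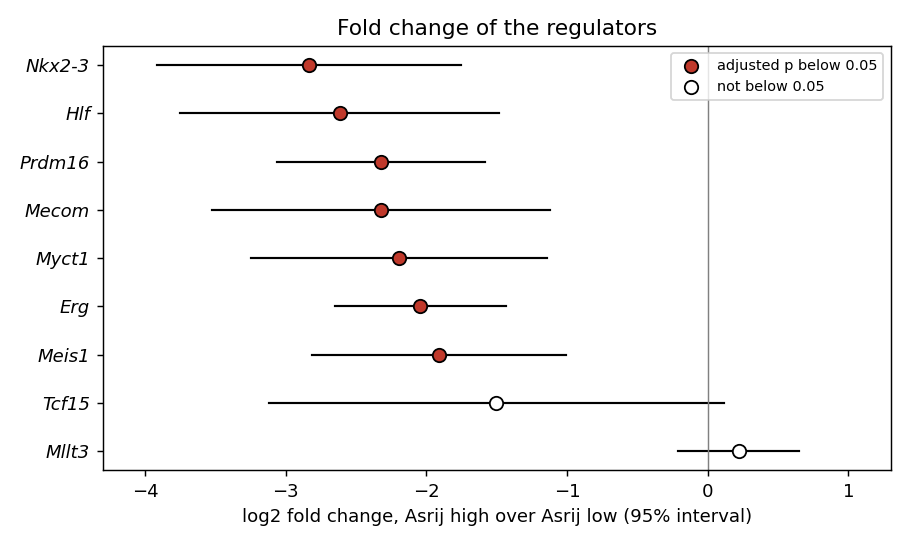
Log2 fold change of the 9 regulators, Asrij high over Asrij low, with 95% intervals from the edgeR fit; filled points passed the adjusted p threshold of 0.05. The 7 filled points lie between -2.83 and -1.91, the interval of Tcf15 just crosses 0, and that of Mllt3 runs from -0.21 to 0.65.

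The members varied together among the Asrij high libraries. In 7 of the 9 members replicate 1 was lowest, replicate 3 intermediate and replicate 2 highest within Asrij high, an order found in 51.3% of the genes lower in Asrij high and in 21.1% of all tested genes. Set against the mean of Asrij low, the 8 members other than Mllt3 stood at 5.47% to 14.5% in Asrij high replicate 1, at 25.1% to 77.3% in replicate 2 and at 11.6% to 25.9% in replicate 3. The median over these 8 was 11.3%, 32.0% and 16.4% in replicates 1, 2 and 3, and that over all genes lower in Asrij high was 19.9%, 39.3% and 24.6%. The highest Asrij high library exceeded the lowest by 2.24-fold to 5.43-fold in these 8 members, whereas among the Asrij low libraries the highest exceeded the lowest by 1.16-fold to 1.51-fold in all 9.

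**Figure D3:**
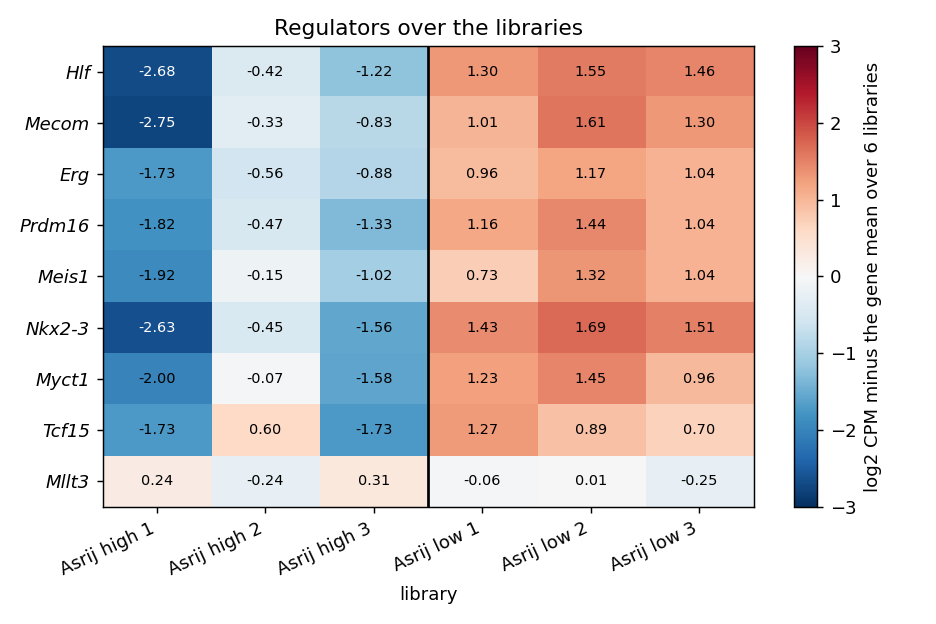
Heat map of the 9 regulators (rows) in the 6 libraries (columns), with Asrij high left of the line; the number and colour give log2 CPM minus the gene's mean over the libraries. In every row but Mllt3, all Asrij high cells are below all Asrij low cells and Asrij high replicate 2 is the highest of its group.

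The pair of members with the most similar profile was Hlf and Nkx2-3, with a root mean square difference of 0.161 in centred log2 CPM over the 6 libraries. Prdm16 lay nearest to the median profile of the members (0.0852), Erg, Meis1 and Myct1 between 0.191 and 0.227 from it, Hlf, Mecom and Nkx2-3 between 0.364 and 0.404, Tcf15 at 0.519 and Mllt3 at 1.43. Each member is itself part of that median, so a small distance of a member is partly built in. Among 10614 other named genes with at least 5 CPM on average, the 8 closest were Cadps2, Gpr171, Abca1, Sesn3, Arhgap32, Icam1, Hspa12b and Cep170b, at 0.0914 to 0.129. Abca1 exports cholesterol, Sesn3 is a stress-responsive sestrin, and Icam1 is an adhesion receptor. Abca1 averaged 18.5 ± 10.8 CPM in Asrij high, against 80.4 ± 10.6 CPM in Asrij low. These genes were picked for their likeness, so their fall is no separate result.

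Levels can be set side by side between members only per length. Per kilobase of merged exons (GENCODE vM21), Erg was highest in Asrij high, at 15.4 ± 5.75 CPM per kb, and in Asrij low, at 63.3 ± 4.8 CPM per kb. In Asrij low Hlf (47.2 ± 4.10), Meis1 (35.4 ± 7.19), Nkx2-3 (23.2 ± 2.18), Myct1 (14.5 ± 2.44), Prdm16 (7.68 ± 1.12), Mecom (5.26 ± 1.08), Mllt3 (4.35 ± 0.401) and Tcf15 (3.15 ± 0.665 CPM per kb) followed. Neighbours in that order did not overlap in any library, except Mecom and Mllt3, although the ranges of Hlf and Meis1, and of Mllt3 and Tcf15, nearly met. In Asrij high the order was Erg, Meis1 (9.43 ± 5.51), Hlf (7.70 ± 5.12), Mllt3 (5.06 ± 0.992), Nkx2-3 (3.26 ± 2.33), Myct1 (3.16 ± 2.38), Prdm16 (1.53 ± 0.748), Tcf15 (1.11 ± 1.15) and Mecom (1.05 ± 0.688 CPM per kb). There the ranges of all neighbours over the libraries overlapped, which does not compare 2 genes within the same library. Erg and Meis1 stood at 9.16 and 4.50 CPM per kb in Asrij high replicate 1, and at 20.5 and 15.4 in replicate 2. Mllt3 ranked 4 of 9 in Asrij high and 8 of 9 in Asrij low, and the order depends on the length used: with the longest transcript, 4 of 9 members kept their rank in Asrij high and 6 in Asrij low. With the median transcript length 2 and 1 kept it, and Erg then ranked 4 in Asrij high, where Mllt3 was highest at 37.4 ± 7.33 CPM per kb, and 3 in Asrij low, where Hlf was highest at 187 ± 16.3 CPM per kb.

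Erg binds with Gata2, Tal1, Lmo2, Lyl1, Runx1 and Fli1 in a group of 7 blood factors. Of these 6 partners, 4 were lower in Asrij high and 0 higher, with a median log2 fold change of -0.72, beside 17.7% lower and 21.7% higher among all tested genes. This list and those below were chosen with earlier results of these data known. Gata2, a zinc finger factor needed for HSC survival, had 71.4, 304 and 60.2 CPM in Asrij high, against 671, 612 and 372 CPM in Asrij low. The groups came close, with Asrij high replicate 2 nearest to Asrij low replicate 3 (log2 -1.92 ± 0.62, adjusted p = 0.0417). Runx1 had 67.1, 110 and 76.7 CPM in Asrij high, against 138, 161 and 161 CPM in Asrij low (log2 -0.86 ± 0.20, adjusted p = 0.00937). Fli1, the closest ETS relative of Erg, fell less (log2 -0.83 ± 0.28, adjusted p = 0.0415), as did Lmo2 (-0.52 ± 0.17, adjusted p = 0.0369), which encodes an adaptor of such complexes. Lyl1 (-0.61 ± 0.23, adjusted p = 0.0646) and Tal1 (0.30 ± 0.15, adjusted p = 0.134) were not called. Lyl1 was called lower in 10 of the 15 alternatives, among them DESeq2 (log2 -0.66, adjusted p = 0.0322), limma-voom (-0.66, adjusted p = 0.0319), library totals (-0.86, adjusted p = 0.0234), a replicate block (-0.66, adjusted p = 0.0431) and the fit without Asrij high 2 (-0.87, adjusted p = 0.00593). The value of Tal1 depended on the scaling, with a log2 fold change of 0.03 with library totals and with upper quartile factors.

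Of these 4 calls, only that of Runx1 held under all 15 alternatives. Gata2 missed the threshold when Asrij low 1 or 2 was left out (adjusted p = 0.0929 and 0.062), when Asrij high 1 or 3 was left out (0.195 and 0.105) and with no count filter (0.186). Leaving out Asrij high 2 gave Gata2 a log2 fold change of -3.03. Fli1 missed it when any Asrij low library was left out (0.0727, 0.135 and 0.061 for libraries 1 to 3), as well as Asrij high 1 or 3 (0.0904 and 0.0909). Lmo2 missed it when Asrij low 1 or 2 (0.138 and 0.0882) or Asrij high 1 or 3 (0.0915 and 0.088) was left out, with no count filter (0.0723) and with a replicate block (0.0691).

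Among the partners and relatives of Meis1, 4 of 10 tested genes fell and 0 rose (median log2 -0.90; all tested genes, 17.7% lower and 21.7% higher). The HOX partner genes Hoxa9 (log2 -1.82 ± 0.34, adjusted p = 0.00325), Hoxa7 (-1.84) and Hoxa10 (-1.87) were lower by about as much as Meis1 itself. Hoxa9 had 8.41, 16.2 and 6.31 CPM in Asrij high, against 36.2, 32.1 and 40.9 CPM in Asrij low. Pbx2 and Pbx3, which encode cofactors of HOX proteins, were not called. Meis3 was also lower (log2 -2.82, adjusted p = 0.0328), but with Asrij low replicate 3 at 5.75 CPM against 0.666 and 1.14 CPM in replicates 1 and 2. Leaving that library out ended the call (log2 -1.36, adjusted p = 0.223), as did leaving out Asrij high 1 or 3 (0.099 and 0.0923), a replicate block (0.067) and limma-voom (log2 -1.97, adjusted p = 0.124).

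Of 17 genes of the complexes that work with Mllt3, 5 were higher and 3 lower (median 0.08), shares near those of all tested genes (21.7% higher and 17.7% lower). Dot1l, the histone H3 lysine methyltransferase that Mllt3 recruits, was not among the 4 with the smallest p, which were Eaf1 (log2 0.93), Aff4 (-0.88), Ell2 (1.54) and Aff3 (-1.80). Dot1l itself averaged 171 ± 7.66 CPM in Asrij high, against 104 ± 18.1 CPM in Asrij low (log2 0.72 ± 0.17, adjusted p = 0.00948). Mllt1 (ENL), the paralogue of Mllt3, averaged 71.1 ± 16.4 CPM in Asrij high, against 67.1 ± 7.96 CPM in Asrij low, and was not called (log2 0.08 ± 0.20, adjusted p = 0.764).

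Of 7 dimer partners and inhibitors of Tcf15, 2 rose and 2 fell (median 0.10), which with so few genes is near the 21.7% higher and 17.7% lower of all tested genes. The E protein genes Tcf3 (log2 1.0 ± 0.17, adjusted p = 0.00234) and Tcf12 (0.50, adjusted p = 0.0226) were higher and Tcf4 (-0.51, adjusted p = 0.0304) lower. Tcf12 lost its call with library totals (log2 0.23, adjusted p = 0.245), with upper quartile factors (0.201), with a replicate block (0.0565) and when Asrij low 1 or 3 (0.0607 and 0.0553) or Asrij high 1 or 3 (0.105 and 0.142) was left out. Tcf4 lost its call with no count filter (adjusted p = 0.0927), with a replicate block (0.055) and when Asrij low 3 (0.0648) or any Asrij high library (0.104, 0.0505 and 0.0666 for 1 to 3) was left out. Id4, an inhibitor of E proteins, had 0.110 CPM in Asrij high replicate 1 and 0 in replicates 2 and 3, against 0.277 to 3.40 CPM in Asrij low (adjusted p = 0.0225). Id4 lost its call when Asrij low 3 (adjusted p = 0.0845) or Asrij high 2 or 3 (0.0568 and 0.0609) was left out.

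The other PAR bZIP genes, Dbp (log2 -1.36 ± 0.29, adjusted p = 0.00569) and Tef (-1.04 ± 0.27, adjusted p = 0.0138), fell with Hlf, by less. Tef lost its call when Asrij low 1 was left out (adjusted p = 0.0595). Nfil3, which binds the same sites as a repressor, was not called (-1.07 ± 0.57, adjusted p = 0.162), so 2 of 3 fell and 0 rose (median -1.07). Over all tested genes 17.7% fell and 21.7% rose, which is the background of this and the following counts. Of 8 tested PRDM genes other than the members, 4 fell and 0 rose (median -0.89), among them Prdm11 (-1.11), Prdm2 (-0.68) and Prdm1 (-2.71). Of 8 genes of corepressors that bind Mecom and Prdm16, 5 rose and 0 fell (median 0.68), against a background of 21.7% and 17.7%. The largest rise was that of the histone methyltransferase gene Suv39h1, at 124 ± 11.4 CPM in Asrij high against 40.3 ± 4.46 CPM in Asrij low (log2 1.62 ± 0.16, adjusted p = 2.74e-04). The deacetylase genes Hdac2 (1.09) and Hdac1 (0.96) and the corepressor gene Ctbp1 (0.66, adjusted p = 0.0195) rose as well. Ctbp1 missed the threshold with library totals (log2 0.38, adjusted p = 0.17) and upper quartile factors (0.39, adjusted p = 0.096), and when Asrij low 3 (0.054) or Asrij high 1 (0.0721) was left out.

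Other regulators of stem cells showed the same direction as the members in most cases. Of 21 genes, 14 were lower and 3 higher in Asrij high (median log2 -1.31), where 17.7% of all tested genes were lower and 21.7% higher. As earlier results of these data were known when the list was chosen, its shares may partly reflect that choice. Among the falls with the smallest p were those of Satb1 (-1.58 ± 0.29, adjusted p = 0.00294), a chromatin organiser, and Hoxb3 (-2.12 ± 0.41, adjusted p = 0.00353). The rises were those of Nfia, at 380, 227 and 356 CPM in Asrij high against 58.6, 73.9 and 69.9 CPM in Asrij low (log2 2.25 ± 0.22, adjusted p = 2.64e-04), Gfi1b (1.54) and Gfi1 (1.22). Nfia and Gfi1b are known for roles in erythroid and megakaryocytic cells. Bmi1, Nfix, Zfx and Cited2 were not called.

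**Figure D4:**
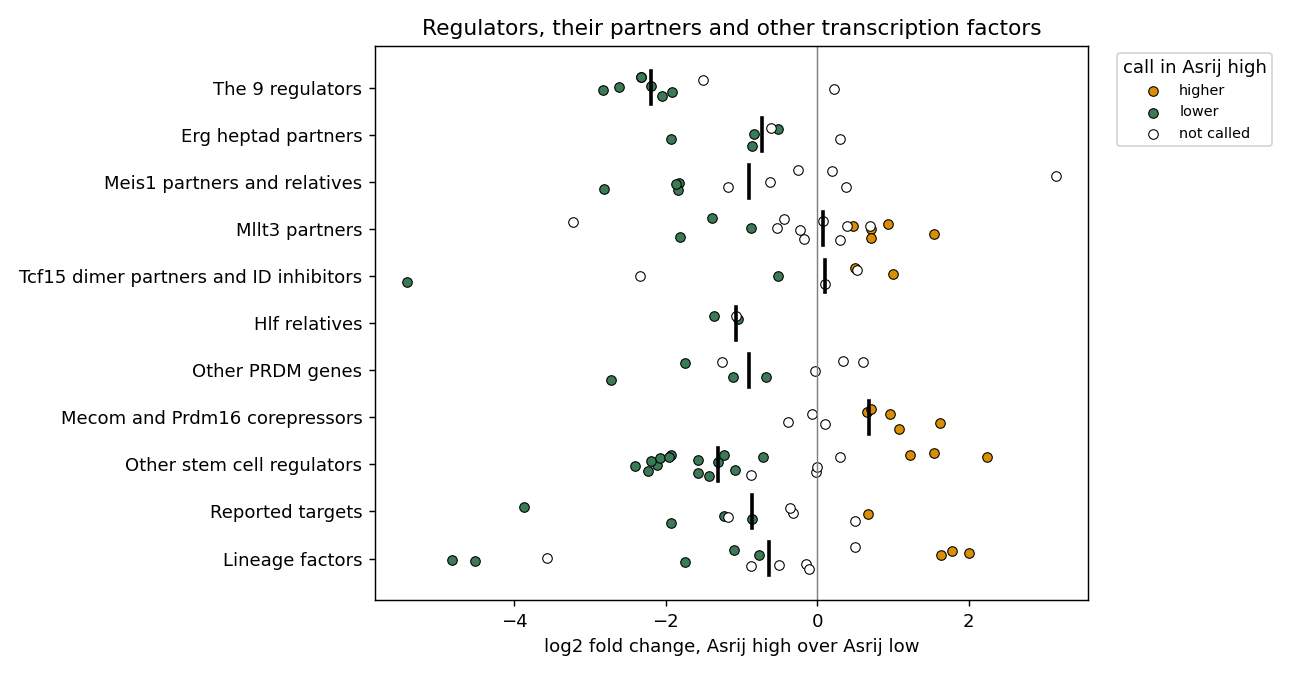
Log2 fold change, Asrij high over Asrij low, of the 9 regulators and of the tested genes of each partner or factor list, 1 point per gene coloured by its call, with the list's median as a bar. The medians run from -2.19 for the 9 regulators to 0.68 for the Mecom and Prdm16 corepressors; lists share some genes.

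Of 9 genes reported as targets or mediators of the members, 4 fell and 1 rose (median -0.86; all tested genes, 17.7% and 21.7%), and Gata2 and Runx1 are among the 4. Ulk1, an autophagy kinase gene reported to depend on Nkx2-3 in HSCs, had 50.4, 65.6 and 40.8 CPM in Asrij high, against 140, 103 and 124 CPM in Asrij low (log2 -1.23 ± 0.21, adjusted p = 0.00214). Mfn2, a mitofusin gene reported to be induced by Prdm16, was higher in Asrij high (log2 0.67 ± 0.18, adjusted p = 0.015), opposite to Prdm16 itself. Mfn2 missed the threshold with library totals (log2 0.40, adjusted p = 0.0729) and upper quartile factors (0.40, adjusted p = 0.0847), and when Asrij low 1 (0.0536) or Asrij high 1 or 3 (0.0672 and 0.0851) was left out. Epas1, reported downstream of Meis1, was lower (log2 -3.86, adjusted p = 0.00663), with Asrij low replicate 3 at 48.0 CPM against 8.98 and 7.03 CPM in replicates 1 and 2. Leaving out Asrij low 3 gave -2.48, and the call ended when Asrij high 1 or 2 was left out (adjusted p = 0.0908 and 0.0606) and with no count filter (0.0823). Cebpa and Hif1a were not called.

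Of 14 factors of committed lineages, 3 were higher and 5 lower (median -0.63). The share higher is close to that of all tested genes, 21.7%, and 17.7% of all tested genes were lower. The erythroid factors Klf1 (log2 2.01 ± 0.22, adjusted p = 3.64e-04) and Gata1 (1.63 ± 0.21, adjusted p = 6.63e-04) rose, as did the granulocyte factor Cebpe (1.79, adjusted p = 0.025). The B cell factors Pax5 (-4.52 ± 0.43, adjusted p = 2.30e-04) and Ebf1 (-4.82 ± 0.82, adjusted p = 0.00209) were lower in Asrij high. So were Nfe2 (-1.10, adjusted p = 0.00306), a factor of erythroid cells and megakaryocytes, and the myeloid factors Spi1 (-0.77, adjusted p = 0.00818) and Irf8 (-1.74, adjusted p = 0.032).

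RefSeq lists 9 noncoding genes within the spans of Mecom, Prdm16, Meis1 and Mllt3, of which 7 were tested and 5 were lower in Asrij high. Over all tested genes, 17.7% were lower. The library kit marks strand, but the strand setting of the counting is not given, and without it their reads may not be told apart from those of the member. Gm16141, which RefSeq places within Meis1 (chromosome 11, 18989652 to 19018330), had 27.8, 100 and 58.8 CPM in Asrij high, against 219, 229 and 280 CPM in Asrij low (log2 -1.96 ± 0.40, adjusted p = 0.00551), a fall of the size of that of Meis1. In GENCODE vM21 it lies on the strand opposite to Meis1 and shares 0 exonic bases with it. The noncoding gene 5930403L14Rik, at the 5′ end of Prdm16 (chromosome 4, 154630691 to 154636367), had 4.55, 14.4 and 6.54 CPM in Asrij high, against 56.6, 46.8 and 52.4 CPM in Asrij low (log2 -2.61 ± 0.39, adjusted p = 0.00124). Gm34232, within the span of Mllt3, was not called (-0.62 ± 0.53, adjusted p = 0.386), as Mllt3 was not, and its sign turned when Asrij low 3 was left out (log2 0.22).

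Markers of the sorted cells and of other marrow cells differed between the groups too. Over all tested genes 17.7% were lower and 21.7% higher, which is the background of all marker counts. Of 8 genes that mark long-term HSCs, 7 were lower in Asrij high and 0 higher, and their summed level was 405, 579 and 356 CPM in Asrij high replicates 1 to 3, against 1033, 1042 and 863 CPM in Asrij low. The one with the most counts was Kit, at 378 ± 75.3 CPM in Asrij high against 682 ± 104 CPM in Asrij low (log2 -0.85). Procr, the EPCR gene used to sort HSCs, had 1.54, 6.46 and 4.19 CPM in Asrij high, against 32.3, 32.0 and 38.6 CPM in Asrij low. Of 5 markers of progenitors and cycling cells, 2 rose (Mki67 and Top2a) and 2 fell (Cd34, log2 -1.92, and Flt3, log2 -2.06). Mki67 had 1359, 1016 and 1652 CPM in Asrij high, against 146, 139 and 290 CPM in Asrij low.

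Erg, Mecom, Meis1, Prdm16 and Myct1 are also expressed in endothelium. A separate list of 18 endothelial markers holds no member. Of these 18, 16 were tested, 7 were lower in Asrij high and 0 higher, beside 17.7% lower and 21.7% higher among all tested genes. The sum of the 18 was 348, 651 and 351 CPM in Asrij high, against 591, 634 and 795 CPM in Asrij low. Tie1, Pecam1, Tek, Robo4, Emcn, Cldn5 and Sox18 were the 7, and each was lower in every Asrij high library than in every Asrij low library. The same held for 24.8% of all tested genes, called or not. Tie1, a receptor gene of endothelium that HSCs also express, had 18.5, 65.2 and 27.7 CPM in Asrij high, against 131, 129 and 143 CPM in Asrij low (log2 -1.85 ± 0.41, adjusted p = 0.00790). Emcn had 0.110, 0.754 and 0.774 CPM in Asrij high, against 3.85, 4.99 and 4.05 CPM in Asrij low (log2 -2.96 ± 0.69, adjusted p = 0.00855). Vwf, which made up much of the sum, had 142, 337 and 139 CPM in Asrij high, against 119, 150 and 113 CPM in Asrij low, and was not called. Cdh5, which defines endothelial cells, had 0.441, 0.220 and 1.32 CPM in Asrij high, against 0.518, 1.11 and 14.7 CPM in Asrij low. Stab2, of sinusoidal endothelium, had 1.01, 1.02 and 4.25 CPM in Asrij high, against 2.65, 4.88 and 53.0 CPM in Asrij low. Cdh5 and Stab2 were not called and were highest in Asrij low replicate 3, and Sox17 had no count in Asrij high. The part of endothelial RNA in the members' fall was not tested. Leaving out Asrij low replicate 3, 7 of the 9 members were lower in Asrij high, with a median of -2.34. That fit does not test the part of endothelial RNA. Asrij low 1 and 2 held Tie1 at 131 and 129 CPM, but HSCs also express Tie1, so its level does not tell the source. In the same 2 libraries Cdh5 stood at 0.518 and 1.11 CPM, and Stab2 at 2.65 and 4.88 CPM.

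All 10 stromal markers, led by Cxcl12 (log2 -4.3), were lower in Asrij high, with sums of 24, 76.2 and 37.3 CPM against 332, 246 and 801 CPM in Asrij low. Of the macrophage markers 6 of 7 were lower (36.2 to 44.3 CPM in Asrij high, 74.2 to 236 CPM in Asrij low), and of the B cell markers 7 of 7 (16.2 to 24.7 CPM in Asrij high, 78.7 to 160 CPM in Asrij low). Of 7 erythroid markers 3 rose (Car1, Epor and Klf1) and 3 fell (Hba-a1, Hbb-bs and Alas2), with sums of 3019 to 4938 CPM in Asrij high and 5987 to 43026 CPM in Asrij low. Of 6 neutrophil markers 2 rose (Mpo and Elane) and 0 fell (2985 to 3793 CPM in Asrij high, 442 to 1880 CPM in Asrij low). Of 5 megakaryocyte markers 0 were called (172 to 680 CPM in Asrij high, 352 to 574 CPM in Asrij low). Of 6 T and NK cell markers 1 fell (28.6 to 64.7 CPM in Asrij high, 26.1 to 42.0 CPM in Asrij low). Beside these counts, 17.7% of all tested genes fell and 21.7% rose. No marker on these lists was at 0 in all libraries. The part of other cell types in the members' fall was not tested.

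**Figure D5:**
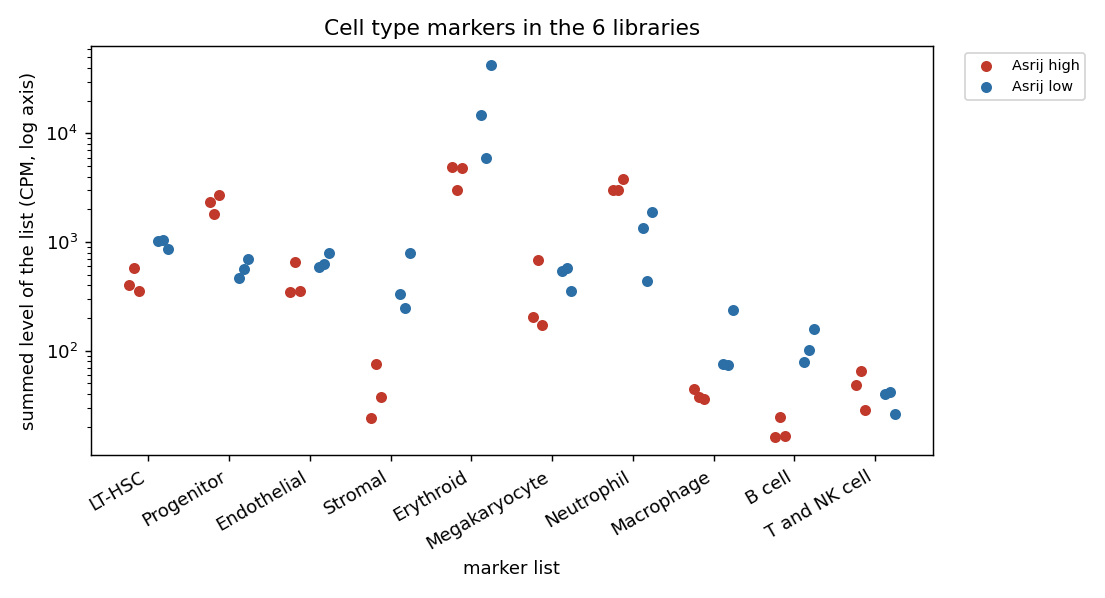
Summed level of each marker list in CPM on a log axis, 1 point per library, Asrij high (red) left of Asrij low (blue). The stromal, erythroid, macrophage, B cell and LT-HSC sums are lower in all Asrij high libraries than in all Asrij low libraries. Most of the erythroid sum is Hba-a1 and Hbb-bs, while Car1, Epor and Klf1 are higher in Asrij high. Most of the LT-HSC sum is Kit. The neutrophil sum and the sum of the progenitor and cycling list are higher in all Asrij high libraries. Most of the progenitor and cycling sum is Mki67 and Top2a, while Cd34 and Flt3 are lower. The endothelial (with Vwf), megakaryocyte and T and NK cell sums overlap.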

How the data were processed

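The authors deposited a table of raw read counts, 1 whole number per gene and library, for the 6 bulk RNA-seq libraries. Per the submitters' processing notes the build was mm10 and the tools included HISAT2, SAMtools, Subread and FastQC; the annotation and the strand setting were not given. Per the labels' protocols, ribosomal RNA was depleted and a directional kit was used, although another label names polyA RNA. Columns were matched to samples by library name.

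Counts were tested with edgeR 4.0.16 in R 4.3.3 (robust quasi-likelihood test, TMM factors, filterByExpr with minimum count 10 and minimum total count 15) for 21445 of 49997 genes. Benjamini-Hochberg adjustment ran over all of them, with a threshold of 0.05. The 15 alternatives were other scalings and filters, DESeq2 1.42.0, limma-voom 3.58.1, a replicate block and libraries left out. Log2 CPM for profiles used a prior count of 2. Replicates differed beyond sampling noise in every pair (lowest chi-square per degree of freedom 82.4).

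The members and all lists were chosen with earlier results of these data known. Named beside the members are up to 4 called genes per partner list by smallest p, all Erg partners, leading markers and the 8 most similar genes. Other genes named, such as the uncalled partners, Dot1l, Gfi1, Cebpe, Nfe2, Spi1, Irf8, Emcn, Procr, Cdh5, Stab2, Sox17 and the overlapping genes, were picked after their values were seen. Some genes of the lists are counted but not reported by name here.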

Additional observations from a re-analysis of the deposited data

How the results depend on the processing

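Under 15 alternatives 6 to 8 of the 9 members were called, all of them lower in Asrij high. The count was 6 with no count filter, 8 with limma-voom, 8 when Asrij low 3 and Asrij high 2 were omitted together, and 7 to 8 when 1 library was omitted. The members' median log2 fold change ran from -2.88 to -1.92. With 1 library omitted, calls over all genes ran from 5481 (without Asrij high 1) to 8935, against 8452 with all, and calls over the 99 tested list genes from 42 (without Asrij high 1 or 3) to 59, against 59. The sign turned for Mllt3 with library totals (-0.060) and upper quartile factors (-0.051). It also turned for Gm34232, which ran from -1.09 to 0.22 with 1 library omitted and stood at 0.27 with Asrij low 3 and Asrij high 2 omitted together; the cause was not tested.

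The labels state no pairing of the libraries by replicate number. Deviations of same-numbered libraries from their group means correlated at 0.0126, 0.0460 and 0.225, the last being the largest of all pairs. Differently numbered pairs ran from -0.158 to 0.0997, and not every library correlated best with its own number. With 3 libraries a group, these values cannot tell whether the libraries were paired. With a replicate block, 7 members, 58 list genes and 8088 genes were called. Tcf15 had the fewest counts of the members, 24 to 206 a library.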
